A study of Mus musculus with 24 samples.

Results

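The loci described here are microRNA (miRNA) genes with late registry numbers: rows of biotype miRNA whose name is Mir followed by a number of 1000 or more, leaving out Mir3074-1. The rule found 20 loci among the 4408 features and 280 miRNA rows of the count files. They were measured in small RNA libraries of CD4+ T cells from spleen and lymph nodes of wild-type C57BL/6 mice, and of the extracellular vesicles (EVs) collected from their culture medium. The 24 libraries formed 8 groups of 3, with cells and EVs from each of 4 culture conditions. Resting cultures had first gone through 2 days of stimulation and 1 of expansion and then spent 2 days in medium with IL2, so these were rested activated cells and not naive ones. Stimulated cultures had spent 3 days on plates coated with anti-CD3 (2 µg/ml), with anti-CD28 (5 µg/ml) in the medium. DMSO and GW4869 cultures were likewise stimulated for 3 days, with GW4869, an inhibitor of the neutral sphingomyelinase used in the budding of some vesicles, or with its vehicle DMSO. Antibody amounts for these cultures, the GW4869 dose and the way the EVs were isolated are not in the labels. Nor do they say that replicates are separate mice or cultures, so p-values measure only the spread between these libraries, which may be technical. In bulk libraries, a lower level cannot be told apart as fewer cells or vesicles that hold an RNA or as less of it in each.

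A miRNA is cut from a hairpin transcript by Drosha and its partner Dgcr8 and then by Dicer, and the mature strand guides Argonaute to messages that pair with its seed, bases 2 to 8. Registry numbers follow the order of discovery, so abundant conserved miRNAs have low numbers. Many late entries rest on sequencing reads alone, are found in few species, or lie inside other non-coding RNAs such as snoRNAs, which guide rRNA modification, scaRNAs, which do this for spliceosomal RNAs, or tRNAs. Some late entries, Mir6236 and Mir6240 among them, are known to resemble stretches of large-subunit ribosomal RNA. No ribosomal RNA sequence was used here, so that resemblance was not tested.

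The libraries held 1290918 to 3231626 counts, of which the 20 loci took 0.282% to 0.4997%. Without Mir3074-2, which has the count of a low-numbered miRNA as described below, the share was 0.0636% to 0.3196%. Counts of a locus in a library ran from 4 to 7574. Of 6 miRNA markers of T cells and blood, 5 were listed, and their summed level in CPM, counts scaled to a common library total, ran from 35170 to 152500. Myeloid, liver, muscle and stromal markers were not listed. The erythroid marker Mir451a, 1 of 2 in its list, averaged 9.84 CPM in resting cells, 47.2 in resting EVs, 68.3 in stimulated cells, 67.8 in stimulated EVs and 37.4 to 51.8 in the DMSO and GW4869 groups. The endothelial and platelet marker Mir126a ran from 50.8 to 138 CPM, and 2 of 4 epithelial markers, Mir141 and Mir200c, together from 51.5 to 145. The part of these other markers in the results below was not tested. The rRNA features were the 70 rows of biotype rRNA or mitochondrial rRNA or with the name of an rRNA gene. The lincRNA entries AY036118 and Gm42418, named below, were outside this list. The rRNA features took 0.478% to 0.626% of the counts of resting cells and 1.197% to 1.75% of those of resting EVs. For stimulated cells this share was 5.08% to 6.42%, and for their EVs 7.32% to 7.56%. In DMSO cultures they took 4.34% to 5.77% in cells and 8.34% to 9.36% in EVs, and in GW4869 cultures 4.92% to 7.33% in cells and 7.89% to 8.76% in EVs.

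The RefSeq sequence table used, on the GRCm38.p6 build, held an entry for 19 of the 20 loci and a mature sequence for 18. The mature sequences of the loci read one by one are shown 5′ to 3′, with the seed in capitals, because their base content and their overlap with other RNAs bear on what each count measures.
miR-6236: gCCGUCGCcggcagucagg
miR-6240: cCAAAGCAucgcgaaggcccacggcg
miR-5121: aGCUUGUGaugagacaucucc
miR-2137: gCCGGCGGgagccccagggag
GC content was 78.9% in miR-6236, 69.2% in miR-6240, 47.6% in miR-5121 and 85.7% in miR-2137, beside a median of 52.2% over 1738 mature mouse entries. The miR-6236 hairpin lies at chr9:110281287-110281409 (+ strand) inside the RefSeq lncRNA Gm39429 and overlaps no GENCODE gene. The miR-6240 hairpin, at chr5:114851948-114852064 (+), overlaps no gene of either annotation. Mir5121, at chr7:45126918-45126991 (- strand), shares 30 bases with the snoRNA gene Snord33 and lies in an annotated coding exon of Rpl13a, a ribosomal protein gene. Mir2137 lies at chrX:72992079-72992144 (+) in an intron of Zfp185.

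The 24 mature arms compared, from these loci without Mir1949, had 24 different seeds. Outside the set, miR-6240 shared its seed with miR-330-3p and miR-1983 with miR-412-3p. A further set of mature arms is shown because each lies whole or in part inside another small RNA.
miR-3535: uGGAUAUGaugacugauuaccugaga
miR-3068-5p: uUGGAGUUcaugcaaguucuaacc
miR-1839-5p: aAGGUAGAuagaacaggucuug
miR-1843a-5p: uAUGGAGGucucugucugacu
miR-1843b-5p: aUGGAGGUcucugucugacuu
miR-1983: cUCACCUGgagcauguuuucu
The miR-1843a-5p and miR-1843b-5p arms had 20 bases in a row in common, offset by 1 base, and so had different seeds. Reads from such arms may be shared between the Mir1843a and Mir1843b loci, and their counts are uncertain to that extent.

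Of the 20 loci, 7 overlapped a snoRNA or scaRNA gene, 1 a tRNA gene and 1 another miRNA hairpin on the opposite strand, while 7 lay within a protein-coding gene with no other small RNA there. The remaining 4 (Mir3964, Mir5099, Mir6236 and Mir6240) overlapped no GENCODE gene. The snoRNA and scaRNA class held Mir1839 (chr7:81529916-81529988, +), Mir1843a (chr12:80391613-80391677, -, in Scarna3b), Mir1843b (chr1:159340358-159340423, +, in Scarna3a), Mir1949, Mir3068 (chr12:87437679-87437757, -), Mir3535 (chr1:86351981-86352127, -, with the snoRNA Gm24148 in the nucleolin gene Ncl) and Mir5121. Mir1839, Mir1949 and Mir3068 were listed a second time under the same name as scaRNA or snoRNA. The class in protein-coding genes held Mir1198 (intron of Gripap1), Mir1249 (exon of a 5031439G07Rik transcript), Mir1306 (chr16:18284239-18284317, -, coding exon of Dgcr8, the microprocessor subunit), Mir1964 (intron of Zfp84), Mir1981 (intron of Marc2), Mir2137 and Mir5104 (chr10:7836381-7836474, +, intron of Zc3h12d).

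The hairpins of 3 loci are shown with the bases inside the overlapping RNA gene in capitals, because the overlap sets which reads can be counted for both.
Mir5121 with Snord33: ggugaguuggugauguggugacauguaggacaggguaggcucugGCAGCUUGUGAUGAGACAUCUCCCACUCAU
Mir1983 with the isoleucine tRNA gene n-TItat14: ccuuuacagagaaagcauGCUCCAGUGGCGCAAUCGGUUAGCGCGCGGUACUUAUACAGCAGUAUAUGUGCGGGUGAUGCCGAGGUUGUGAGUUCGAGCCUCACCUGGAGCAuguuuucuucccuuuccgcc
Mir3535 with Gm24148: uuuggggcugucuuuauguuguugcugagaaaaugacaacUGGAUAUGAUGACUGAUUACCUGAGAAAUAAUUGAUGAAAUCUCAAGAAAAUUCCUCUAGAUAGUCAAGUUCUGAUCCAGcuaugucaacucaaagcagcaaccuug
All 21 bases of mature miR-5121 and all 26 of miR-3535 fell inside the snoRNA gene. Of the 21 bases of miR-1983 (chr13:21896930-21896950, -), 13 fell inside the tRNA gene and 8 past its 3′ end.

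The counts of these loci followed those of the overlapping rows. Mir3535 had the same count as the Gm24148 row in 22 of 24 libraries, and Mir1839 the same as its scaRNA row in 14. Mir3074-2 (chr8:84208825-84208907, -) had the same count as Mir24-2, the hairpin on the opposite strand, in 23 libraries and 99.98% of it in the other, so the strand was not separated there. For these loci the count of the miRNA row and that of the neighbour are one measurement. As a percent of the overlapping row, the median count was 98.2% for Mir3068, 93.2% for Mir1843a, 92.2% for Mir1949 and 74.4% for Mir1843b. Mir1306 had a median of 90.8% of the Dgcr8 count, and Mir2137 a median of 19.0% of the Zfp185 count. The Mir1983 count was 101.5% to 123.5% of that of a pre-tRNA row for isoleucine (anticodon TAT), a row that was matched by name and not by position.

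The Mir5121 share varied between groups. Its count was 77.8% ± 6.1 (SD, n = 3) of the Snord33 count in resting cells, 92.9% ± 1.5 in stimulated cells, 61.8% ± 7.24 in DMSO cells and 71.0% ± 4.94 in GW4869 cells. In EVs it was 89.1% ± 4.74 (resting), 89.4% ± 2.81 (stimulated), 82.9% ± 4.99 (DMSO) and 74.8% ± 15.4 (GW4869). The stimulated and DMSO cell libraries did not overlap in this share, at 91.6% or more and 68.7% or less.

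**Figure D1:**
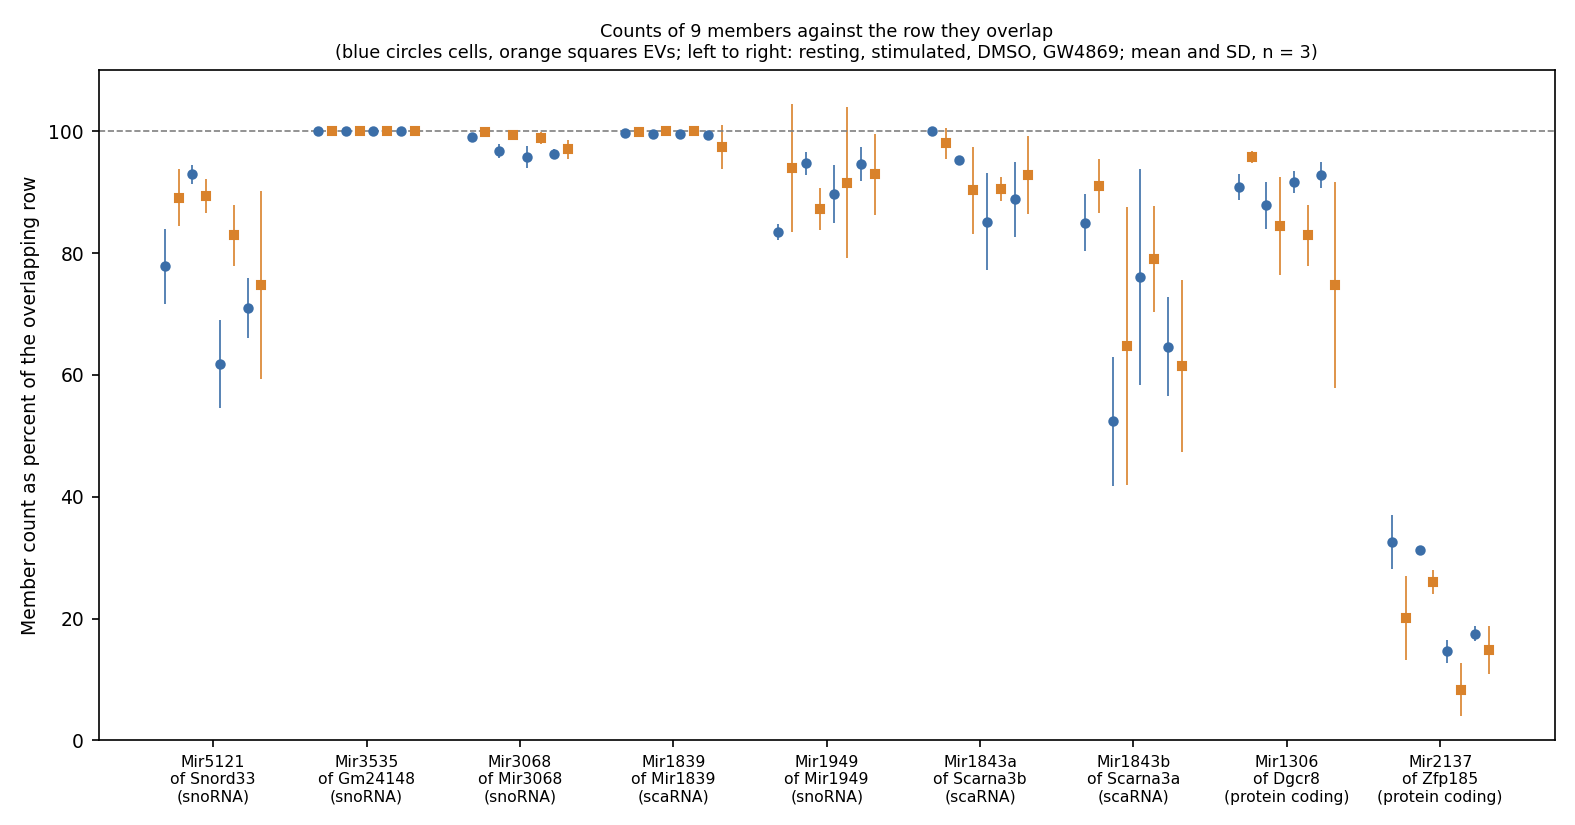
Count of 9 loci as a percent of the count of the row they overlap (vertical axis, percent; points are means and bars SD of 3 libraries; blue circles cells, orange squares EVs, in the order resting, stimulated, DMSO, GW4869). Mir3535, Mir3068 and Mir1839 sit at or just under 100%, Mir5121 between 61.8% and 92.9%, and Mir2137 at or under 32.5%.

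The first comparison asked which of the loci differed between EVs and the cells of the same culture condition. Levels from here on are CPM scaled with trimmed-mean (TMM) factors, and a difference was called where edgeR's quasi-likelihood test gave a Benjamini-Hochberg adjusted p under 0.05 over all 4408 features. Mir6236 was called higher in EVs in 4 of 4 conditions and was the 1 locus of the set with this pattern. Mir3068, Mir3074-2, Mir3535, Mir5099 and Mir5121 were called lower in EVs in 4 of 4, although with TMM factors from the low-numbered miRNAs the calls of Mir3068 and Mir5121 in DMSO cultures and of Mir5099 in resting cultures were lost. The share of all features called in the same direction in 4 of 4 conditions was not counted. Mir6240 and Mir2137 were called higher in EVs in resting and DMSO cultures, and with the miRNA factors Mir6240 in 4 of 4 and Mir2137 also in GW4869 cultures. Mir1843b and Mir3964 passed the test in no condition, but with the miRNA factors both were called higher in DMSO and GW4869 cultures and Mir3964 in stimulated ones.

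In resting cultures, 5 loci were called higher and 5 lower in EVs, beside 34.3% of all features called in either direction (18.9% higher, 15.4% lower). In stimulated cultures 1 was called higher and 8 lower, beside 53.5% of all features (27.7% higher, 25.8% lower). In DMSO cultures 3 were higher and 14 lower, beside 65.4% (37% higher, 28.4% lower), and in GW4869 cultures 1 was higher and 14 lower, beside 68.2% (36.2% higher, 32% lower). The median log2 fold of the 20 loci was 0.12 in resting, -0.60 in stimulated, -1.29 in DMSO and -1.49 in GW4869 cultures. Over all features it was 0.10, 0.07, 0.29 and 0.18. Of the 233 miRNAs numbered under 1000 or named let-7, the medians were -0.09, -0.58, -1.14 and -1.44, so the medians of the set lay close to theirs. In resting cultures 11 of these 233 were called higher in EVs and 11 lower, and in stimulated cultures 3 and 114. In DMSO cultures the counts were 2 and 217, and in GW4869 cultures 0 and 222. The split of the 20 loci depends on the scaling: with TMM factors taken from the low-numbered miRNAs it was 5 higher and 4 lower in resting, 4 and 6 in stimulated, 6 and 4 in DMSO and 5 and 7 in GW4869 cultures, and with library totals 4 and 6 in stimulated ones. Of all 4408 features, these miRNA factors called 1490 (1513 before), 2512 (2359), 3426 (2884) and 3461 (3007) in that order. Library totals called 2506 in stimulated cultures. The direction of these calls over all features was not counted. Without replicate 2, and likewise without replicate 3, 6 loci were called in resting cultures. Mir1306, Mir1983, Mir2137, Mir3068, Mir3074-2 and Mir5099 each lost the resting call without at least 1 of the replicate numbers.

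**Figure D2:**
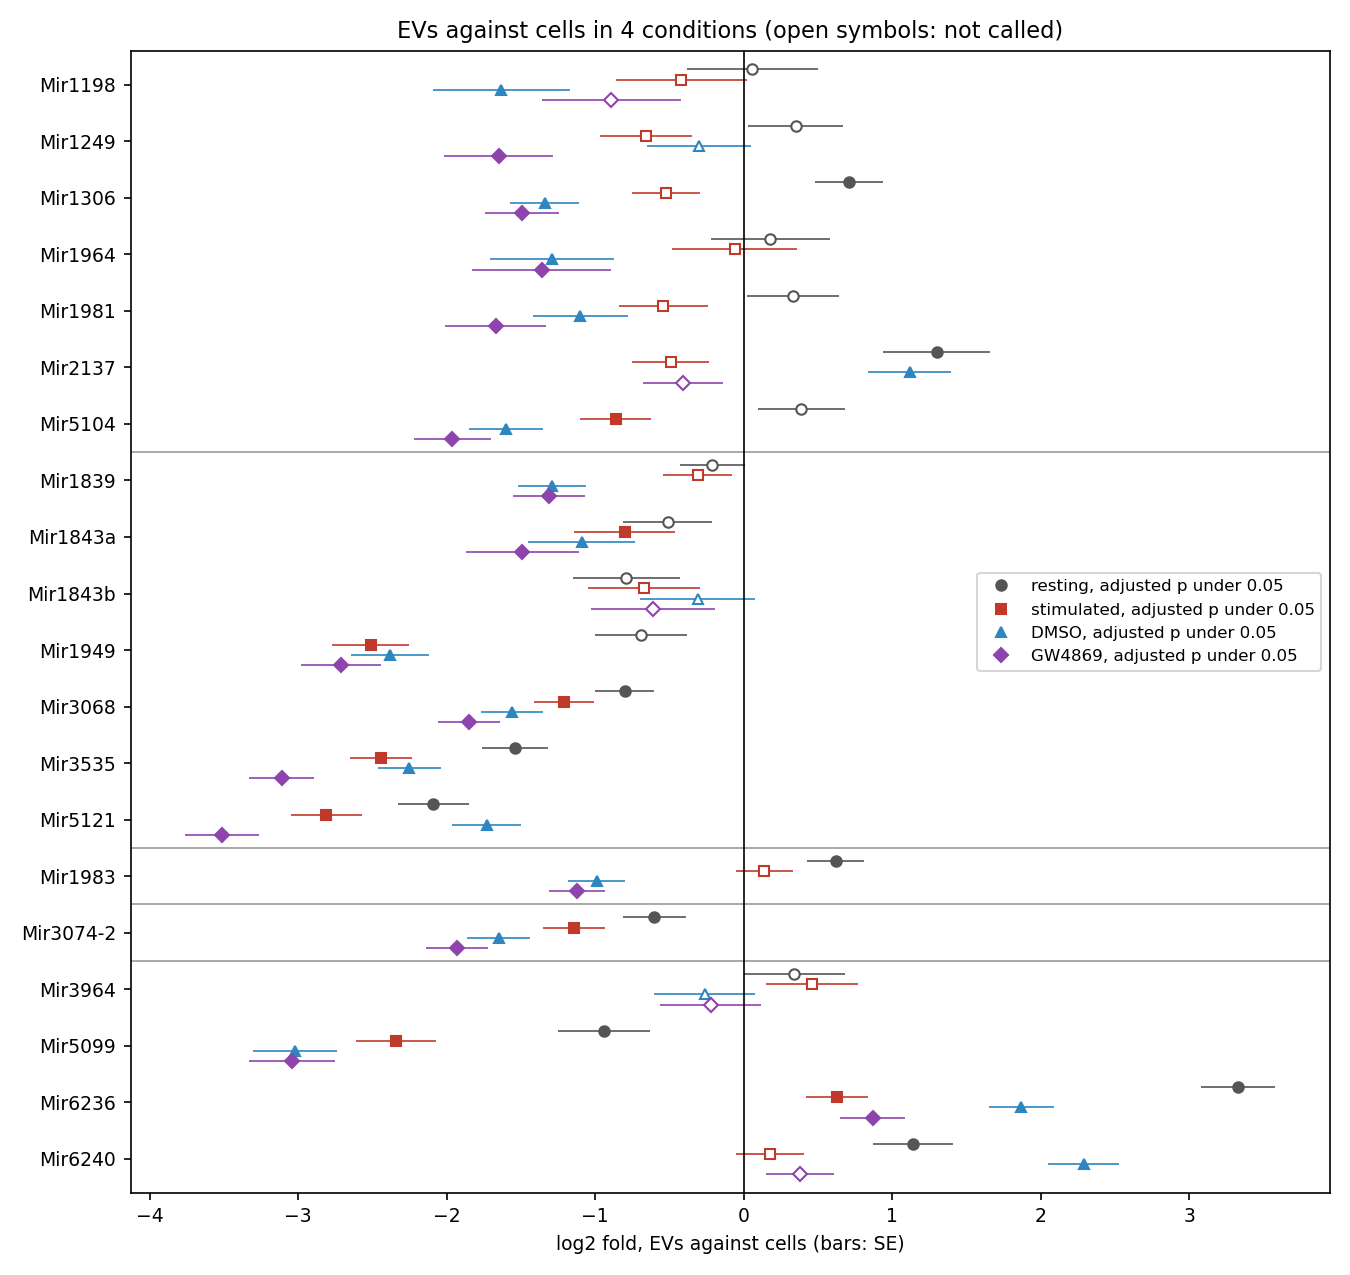
log2 fold of EVs against cells (horizontal axis; bars are SE) for each of the 20 loci in 4 conditions, filled where the adjusted p was under 0.05 and open otherwise. Grey lines part the classes: in protein-coding genes, with a snoRNA or scaRNA, with a tRNA, with a miRNA on the opposite strand, and with no GENCODE gene. Mir6236 lies right of 0 in each condition and Mir5121 lies left of it, from -1.73 to -3.51.

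Mir6236 stood at 30.6, 23.5 and 29.0 CPM in the resting cell libraries and at 392.7, 233.4 and 214.1 in the resting EV libraries. In stimulated cultures it stood at 415.1, 437.0 and 454.6 CPM in cells and 612.7, 674.9 and 740.9 in EVs. No EV library overlapped the cells of its condition, and the resting pair lay farthest apart. DMSO cells held 231.6, 180.0 and 191.0 CPM and DMSO EVs 849.4, 780.1 and 579.1. GW4869 cells held 366.9, 296.4 and 334.3 CPM and GW4869 EVs 468.3, 602.5 and 751.3. The log2 fold of EVs against cells was 3.33 ± 0.25 (SE) in resting (edgeR adjusted p = 1.06e-10), 0.63 ± 0.21 in stimulated (0.0148), 1.87 ± 0.22 in DMSO (7.87e-08) and 0.87 ± 0.22 in GW4869 cultures (0.000938). The rRNA feature Rn18s-rs5, a copy of small-subunit rRNA, had log2 folds of 2.10, 0.46, 1.46 and 0.54 in the same order. Of the 70 rRNA rows, 4 were called higher and 1 lower in resting EVs, with a median log2 fold of 0.57. In the other conditions most were called lower, with 61 in stimulated EVs, 62 in DMSO EVs and 65 in GW4869 EVs. Without replicate 2 or without replicate 3 the stimulated difference was not called.

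Set against the count of Rn18s-rs5 in the same library, Mir6236 stood at 8.01 ± 1.31 (SD, n = 3) per 1000 Rn18s-rs5 counts in resting cells and 18.5 ± 5.22 in resting EVs. These groups did not overlap, with at most 9.35 in cells and at least 14.5 in EVs. The ratio was 14.4 ± 0.953 in stimulated cells and 16.2 ± 0.0536 in stimulated EVs, and ran from 11.1 to 16.9 in the mean of the DMSO and GW4869 groups. Mir6236 thus varied less against Rn18s-rs5 than in CPM, where its group means ran from 27.7 to 736.2. The same held for Mir6240, with mean ratios of 3.56 to 12.9 beside 24.1 to 636.3 CPM. It also held for Mir2137, with 1.35 to 4.24 beside 9.34 to 128.5 CPM.

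Mir6240 stood at 21.5, 23.5 and 27.3 CPM in resting cells and 71.1, 50.7 and 38.7 in resting EVs. Stimulated cells held 377.0, 346.1 and 390.2 CPM and stimulated EVs 425.5, 422.9 and 410.2. The resting groups were apart and the stimulated ones lay side by side without overlap. DMSO cells held 134.9, 135.7 and 119.4 CPM, and DMSO EVs 977.1, 514.9 and 416.9, where 1 library stood well above the others. GW4869 cells held 208.0, 224.1 and 196.9 CPM and GW4869 EVs 249.3, 312.4 and 259.2. The log2 fold of EVs against cells was 1.14 ± 0.27 in resting (edgeR adjusted p = 0.00156) and 2.29 ± 0.24 in DMSO cultures (1.33e-08), and 1.84 in DMSO cultures without the highest EV library. It did not pass the test in stimulated (0.18 ± 0.23, adjusted p = 0.532) or GW4869 cultures (0.38 ± 0.23, 0.146), although with library totals the test was passed in both, at 0.62 and 1.13.

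Per 1000 Rn18s-rs5 counts, Mir6240 ran the other way from Mir6236 in resting cultures. It stood at 6.92 ± 0.476 in resting cells and 3.56 ± 0.904 in resting EVs, where the highest EV library had 4.43 and the lowest cell library 6.57. In the other groups its mean ratio ran from 7.15 to 12.9.

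Mir5121 was the locus with the lowest EV to cell ratios of the set in resting, stimulated and GW4869 cultures. Resting cells held 147.1, 147.3 and 159.2 CPM and resting EVs 34.0, 28.5 and 43.5. Stimulated cells held 467.1, 479.3 and 517.1 CPM and stimulated EVs 72.2, 68.7 and 67.9. Cells and EVs were far apart in both conditions. DMSO cells held 194.6, 184.0 and 198.3 CPM, DMSO EVs 53.2, 67.3 and 53.2, GW4869 cells 188.0, 188.5 and 239.0, and GW4869 EVs 27.7, 16.7 and 9.80. The log2 fold of EVs against cells was -2.09 ± 0.24 in resting (edgeR adjusted p = 8.48e-08), -2.81 ± 0.24 in stimulated (1.91e-10), -1.73 ± 0.23 in DMSO (4.85e-07) and -3.51 ± 0.25 in GW4869 cultures (9.63e-12). Snord33 had log2 folds of -2.30, -2.75, -2.16 and -3.62 in the same order. With TMM factors from the low-numbered miRNAs the DMSO difference was -0.50 and was not called.

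Mir2137 stood at 11.6, 9.40 and 7.04 CPM in resting cells and 37.1, 9.73 and 23.0 in resting EVs, where the groups overlapped. Stimulated cells held 131.4, 126.8 and 127.3 CPM and stimulated EVs 85.7, 92.8 and 95.1. EVs were here the lower group, without overlap. DMSO cells held 31.3, 29.5 and 32.5 CPM, DMSO EVs 51.6, 96.5 and 56.3, GW4869 cells 85.4, 80.1 and 76.0, and GW4869 EVs 65.0, 57.4 and 58.8. The log2 fold of EVs against cells was 1.30 ± 0.36 in resting (edgeR adjusted p = 0.00492) and 1.12 ± 0.28 in DMSO cultures (0.00126). Values in stimulated and GW4869 cultures did not pass the test, at -0.49 ± 0.26 (0.117) and -0.41 ± 0.27 (0.176), and with TMM factors from the low-numbered miRNAs they became 0.11 and 1.04, the latter called. The resting difference was not called without replicate 1 or without replicate 3.

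The host row Zfp185 had log2 folds of EVs against cells of 1.89 in resting, -0.23 in stimulated, 2.12 in DMSO and -0.13 in GW4869 cultures. The Mir2137 share of that row was 32.5% ± 4.42 in resting cells and 20.1% ± 6.96 in resting EVs, and 14.6% ± 1.89 in DMSO cells and 8.32% ± 4.35 in DMSO EVs, so most reads of the host lay elsewhere in it.

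**Figure D3:**
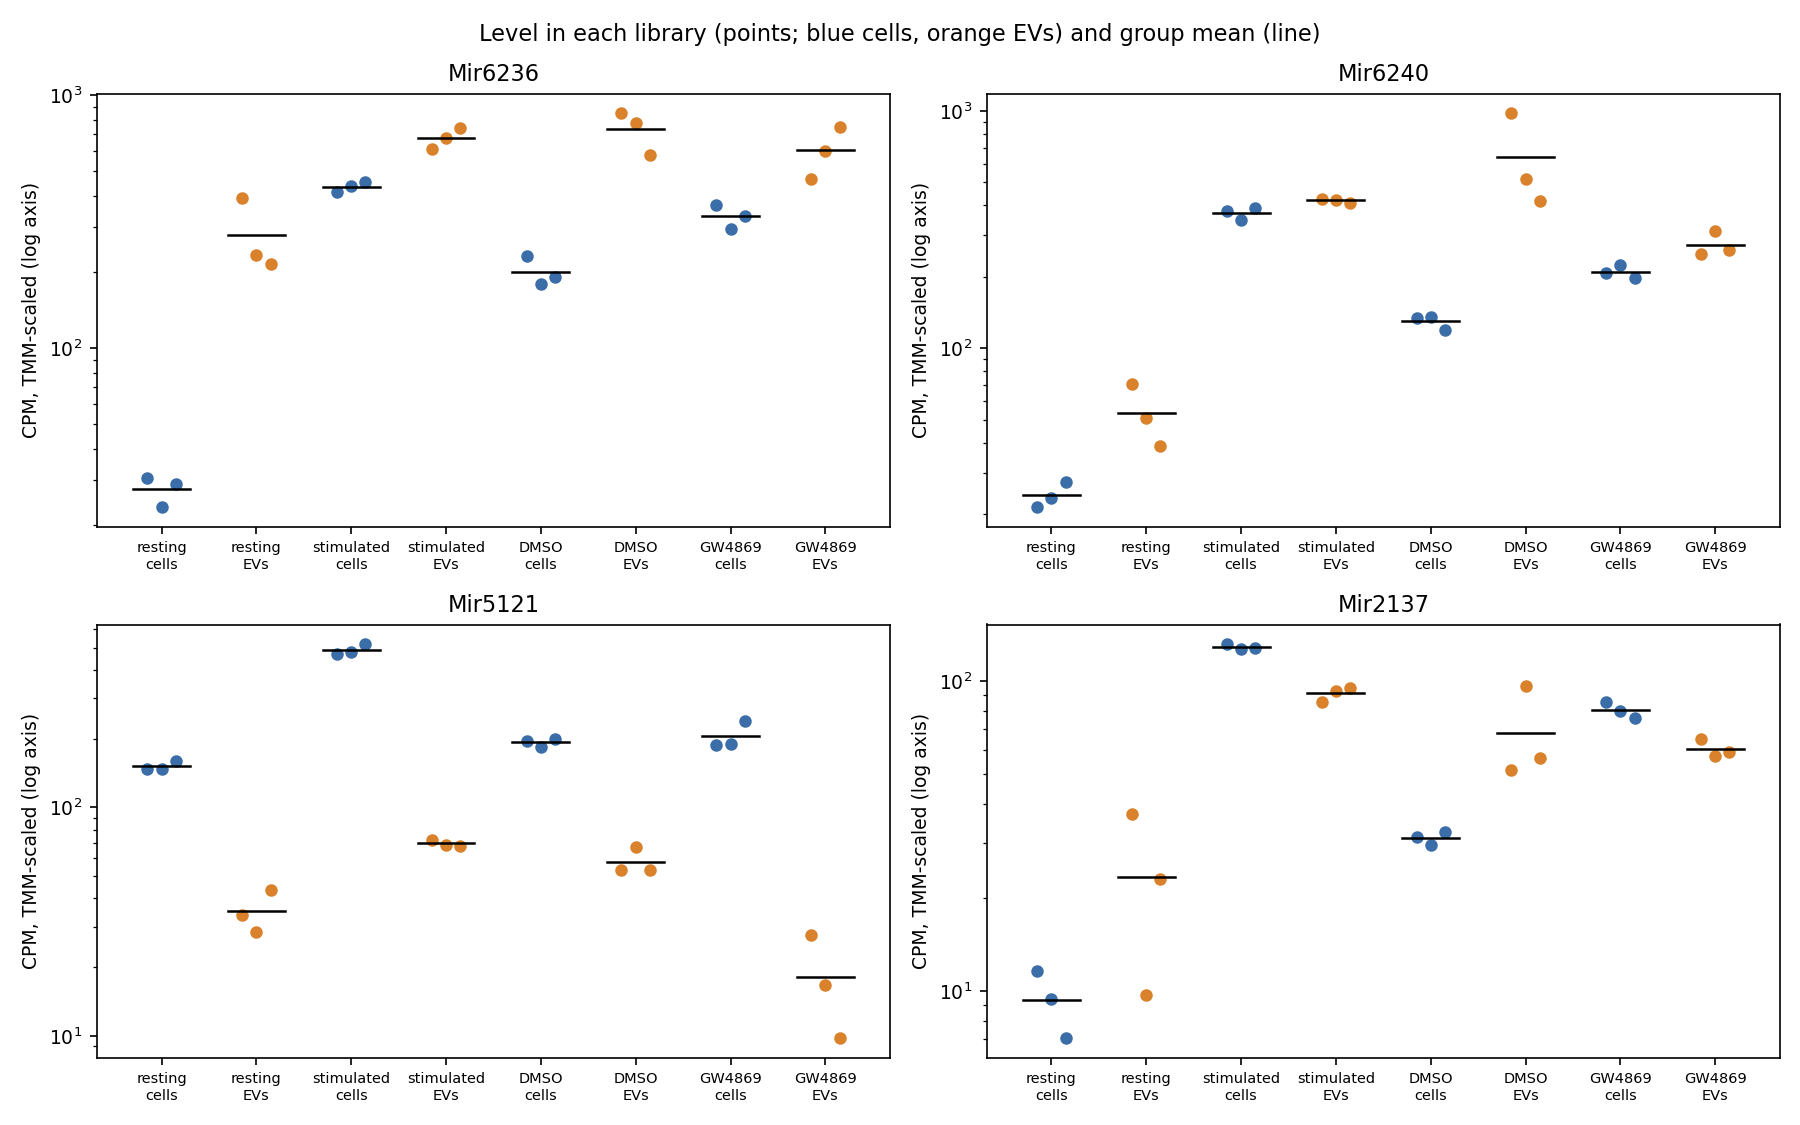
Level of Mir6236, Mir6240, Mir5121 and Mir2137 in each of the 24 libraries (vertical axis, TMM-scaled CPM on a log scale; points are libraries, blue cells and orange EVs; lines are means of 3). Mir6236 EVs lie above the cells in each condition and Mir5121 EVs below them. The highest Mir6240 point is 1 DMSO EV library at 977.1 CPM.

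Among the loci that overlap a snoRNA or scaRNA, the log2 fold was below 0 in all 7 in each condition, and with TMM factors from the low-numbered miRNAs in 7, 6, 5 and 5 in resting, stimulated, DMSO and GW4869 cultures. The number called lower was 3 in resting (15.4% of all features), 5 in stimulated (25.8%), 6 in DMSO (28.4%) and 6 in GW4869 cultures (32%), and none was called higher. With the miRNA factors these counts were 3, 4, 2 and 4, and 1 locus, Mir1843b, was called higher in DMSO and in GW4869 cultures. Mir3535 stood at 71.1, 84.6 and 75.6 CPM in resting cells against 23.7, 27.8 and 27.8 in resting EVs, and at 271.8, 276.8 and 213.8 in GW4869 cells against 25.0, 31.9 and 31.4 in GW4869 EVs. Its log2 fold was -1.54 ± 0.22 in resting, -2.44 ± 0.21 in stimulated, -2.25 ± 0.21 in DMSO and -3.11 ± 0.22 in GW4869 cultures. Mir3068 stood at 239.7, 235.0 and 272.7 CPM in resting cells and 151.7, 138.2 and 140.3 in resting EVs, without overlap, and its log2 folds ran from -0.80 ± 0.20 in resting to -1.85 ± 0.21 in GW4869 cultures. Mir1949 was called lower in EVs in the 3 stimulated conditions, at -2.51 ± 0.26, -2.38 ± 0.26 and -2.71 ± 0.27, and not in resting cultures (-0.69). Mir1839 was called lower in DMSO (-1.29 ± 0.23) and GW4869 cultures (-1.31 ± 0.24, but 0.16 with the miRNA factors). Mir1843a was called lower in stimulated (-0.80 ± 0.34), DMSO (-1.09 ± 0.36, but 0.13 with the miRNA factors) and GW4869 cultures (-1.49 ± 0.38), and lost the stimulated call without each replicate in turn, the DMSO call without the DMSO EV library high in Mir6240 (-0.92) and the GW4869 call without replicate 1 (-0.82). Over all 152 snoRNA and scaRNA rows of the files, which include the partners of these loci, the median log2 fold was -1.72 in resting, -2.65 in stimulated, -2.59 in DMSO and -3.22 in GW4869 cultures.

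Of the 7 loci within protein-coding genes, 2 were called higher in resting EVs and none lower, beside 18.9% of all features higher. In stimulated EVs 0 were called higher and 1 lower, in DMSO EVs 1 and 5, and in GW4869 EVs 0 and 5, beside 25.8%, 28.4% and 32% of all features lower. With the miRNA factors 0 were called lower in stimulated, 0 in DMSO and 1 in GW4869 EVs. Mir1306, which shares its exon with Dgcr8 coding sequence, stood at 38.9, 35.3 and 46.6 CPM in resting cells and 69.5, 61.8 and 66.5 in resting EVs, all above the cells. In DMSO cultures the order was turned, with 57.3, 50.5 and 46.4 CPM in cells and 18.9, 21.7 and 20.3 in EVs. The log2 fold was 0.71 ± 0.23 in resting (edgeR adjusted p = 0.0187), -1.34 ± 0.23 in DMSO (2.32e-05) and -1.49 ± 0.25 in GW4869 cultures (9.11e-06). Mir5104 was called lower in EVs in stimulated (-0.86 ± 0.24), DMSO (-1.60 ± 0.25) and GW4869 cultures (-1.96 ± 0.26). Its stimulated call was lost without replicate 3 (-0.76). Mir1198 was called lower in DMSO cultures (-1.63 ± 0.46) and Mir1249 in GW4869 cultures (-1.65 ± 0.37). Mir1964 was called lower in DMSO (-1.29) and GW4869 cultures (-1.36), but stood at 0.02 and 0.04 with the miRNA factors, and lost both calls without replicate 2. Mir1981 was called lower in DMSO (-1.10, not called without replicate 1, and 0.08 with the miRNA factors) and GW4869 cultures (-1.67). Of the calls of lower levels in this class in DMSO and GW4869 cultures, that of Mir5104 with GW4869 was kept with the miRNA factors.

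Mir5099, which overlaps no GENCODE gene (chr12:36816205-36816278, +), stood at 132.0, 88.6 and 98.2 CPM in DMSO cells and 11.2, 16.4 and 12.01 in DMSO EVs. It was called lower in EVs in each condition, from -0.94 ± 0.31 in resting to -3.04 ± 0.29 in GW4869 cultures. Mir1983 was higher in resting EVs, at 186.5, 207.0 and 216.2 CPM against 130.6, 119.9 and 146.0 in resting cells (log2 fold 0.62 ± 0.19, edgeR adjusted p = 0.0112). In DMSO and GW4869 cultures it was lower in EVs, at -0.99 ± 0.19 and -1.12 ± 0.19, but stood at 0.22 and 0.34 with the miRNA factors. The pre-tRNA row it follows had 0.47 in resting cultures, which did not pass the test (adjusted p = 0.0635), and -1.24 and -1.28 in DMSO and GW4869 cultures. Mir3074-2, counted as one with Mir24-2, was called lower in EVs from -0.60 ± 0.21 in resting to -1.93 ± 0.21 in GW4869 cultures. Mir3964 lay between 4.26 and 15.8 CPM in the 24 libraries, and its log2 folds of EVs against cells ran from -0.26 to 0.46 with SE of at least 0.31.

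The next comparison set stimulated against resting cultures. Culture time and earlier treatment differed as well and cannot be told apart from stimulation. In cells 8 loci rose and 6 fell, beside 46.1% of all features called (23% higher, 23.1% lower). In EVs 4 rose and 10 fell, beside 54.1% (28.9% higher, 25.2% lower). Mir2137, Mir5121, Mir6236 and Mir6240 rose in both, and 6 loci fell in both: Mir1839, Mir1843a, Mir1843b, Mir1964, Mir3068 and Mir3074-2, of which Mir1843b in EVs and Mir3068 in both stood above 0 with TMM factors from the low-numbered miRNAs. The share of all features that rose or fell in both was not counted. The median log2 fold of the 20 loci was -0.32 in cells and -0.90 in EVs, beside -0.05 and 0.09 over all features and -0.64 and -1.21 over the low-numbered miRNAs. With library totals the split was 9 higher and 2 lower in cells and 9 and 3 in EVs, and with TMM factors from the low-numbered miRNAs it was 10 and 2 in both. Of all 4408 features, library totals called 2333 in cells (2033 before) and 3306 in EVs (2386). The miRNA factors called 2460 and 3593. With both of these scalings the calls of 4 falls in cells were lost (Mir1843b, Mir1964, Mir3068 and Mir3074-2), which left Mir1839 and Mir1843a. In EVs both lost the calls of 7 falls (Mir1198, Mir1249, Mir1306, Mir1843b, Mir1964, Mir1981 and Mir3068), and the miRNA factors also that of Mir3074-2.

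From the values above, Mir6236 rose from a mean of 27.7 ± 3.72 CPM (SD, n = 3) in resting cells to 435.6 ± 19.8 in stimulated cells, 15.7 times (log2 fold 3.97 ± 0.26, edgeR adjusted p = 1.16e-12). In EVs it rose from 280.1 ± 98 to 676.2 ± 64.1, 2.42 times (1.27 ± 0.22, 2.24e-05). Mir6240 rose 15.4 times in cells (3.94 ± 0.28) and 7.89 times in EVs (2.98 ± 0.26), and Mir2137 13.6 times in cells (3.77 ± 0.34) and 3.94 times in EVs (1.98 ± 0.29). The Mir2137 counts in the resting cell libraries were low, from 8 to 14. Mir5121 rose 3.23 times in cells (1.69 ± 0.23) and 1.96 times in EVs (0.97 ± 0.24). Resting and stimulated libraries of these loci did not overlap. The sizes of these rises depend on the scaling. Over all features the median log2 fold shifted by 0.82 in cells and 1.12 in EVs with library totals. With TMM factors from the low-numbered miRNAs it shifted by 1.01 and 1.48. Rn18s-rs5 had log2 folds of 3.12 in cells and 1.48 in EVs, and of the 70 rRNA rows 70 rose in cells. Per 1000 Rn18s-rs5 counts, Mir6236 stood at 8.01 in resting and 14.4 in stimulated cells, Mir6240 at 6.92 and 12.3, and Mir2137 at 2.72 and 4.24. The rRNA share of a library thus moved with these loci, and its part in their rise was not tested.

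Of the loci with a snoRNA or scaRNA, 3 rose in cells and 4 fell, beside 23% of all features higher and 23.1% lower, and 2 of these falls, Mir1839 and Mir1843a, were called with both other scalings too. The risers were Mir5121, Mir3535 (from 77.1 to 190.1 CPM in the mean, 1.30 ± 0.21) and Mir1949 (from 16.7 to 43.6, 1.39 ± 0.27). Mir1843a fell from 74.4, 82.3 and 98.5 CPM in resting cells to 14.6, 21.9 and 14.1 in stimulated cells, without overlap (-2.34 ± 0.32, edgeR adjusted p = 1.27e-06), and from 69.5, 68.8 and 41.9 to 7.999, 11.9 and 8.71 in EVs (-2.64 ± 0.33). Mir1839 fell from 187.6, 188.8 and 244.5 CPM to 63.4, 52.7 and 51.8 in cells (-1.88 ± 0.23) and by 1.98 on the log2 scale in EVs. Mir1843b fell in cells (-1.60) and in EVs (-1.49, but 0.01 with the miRNA factors). Scarna3b, the partner of Mir1843a, had log2 folds of -2.28 in cells and -2.52 in EVs. Mir3068 fell in cells from a mean of 249.1 to 134.7 CPM (-0.89 ± 0.20), but stood at 0.12 with TMM factors from the low-numbered miRNAs, and fell in EVs (-1.30), where it stood at 0.19 with those factors.

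Outside that class, Mir5099 rose in cells from 32.2, 32.1 and 24.6 CPM to 80.8, 96.0 and 75.9 (1.5 ± 0.27) and stood at 15.7 and 16.7 CPM in the means of resting and stimulated EVs. Mir5104 also rose in cells (1.17 ± 0.27) and had -0.08 in EVs. Mir1306 fell in EVs from a mean of 65.95 to 22.5 CPM (-1.56 ± 0.23) and had -0.33 in cells, which did not pass the test. Mir1198, Mir1249 and Mir1981 fell in EVs, at -1.5, -1.32 and -1.29, but with the miRNA factors stood at -0.04, 0.16 and 0.17. In cells they had -1.02, -0.30 and -0.42, which did not pass the test. Mir1964 fell in cells (-1.46, not called without replicate 3) and in EVs (-1.70). The fall in EVs was not called for Mir1198 without replicate 2 (-1.39) or for Mir1981 without replicate 1 (-0.80). Mir3074-2 fell from a mean of 5084 to 2351 CPM in cells (-1.11 ± 0.21) and from 3346 to 1070 in EVs (-1.64 ± 0.21).

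A test of the difference of the log2 folds then asked whether the EV to cell ratio itself changed with stimulation. It was lower in stimulated cultures for 8 loci and higher for none, beside 35.8% of all features called (15.2% higher, 20.7% lower). The difference was -2.70 ± 0.33 for Mir6236 (edgeR adjusted p = 4.14e-07), -0.96 ± 0.36 for Mir6240 (0.0377) and -1.79 ± 0.44 for Mir2137 (0.0027). It was -1.82 for Mir1949, -1.40 for Mir5099, -1.25 for Mir5104, -1.23 for Mir1306 and -0.90 for Mir3535. Mir5121 had -0.72 ± 0.33 and did not pass the test (adjusted p = 0.0892). Rn18s-rs5 had a difference of -1.64. Without replicate 1 the test called 2 loci and without replicate 2 it called 4, and with TMM factors from the low-numbered miRNAs it called 3. Those factors called 1444 of all 4408 features, beside 1580 before. Mir1306, Mir3535, Mir5099 and Mir6240 lost the call without replicate 1 and without replicate 2, and Mir2137 and Mir5104 without replicate 1 and without replicate 3. Mir3535 and Mir6240 also lost it with library totals. Mir1949 and Mir6236 kept it in each of these fits.

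DMSO cultures were set against stimulated ones, which had no vehicle. The labels do not say whether they were run side by side, so the vehicle and any difference between runs cannot be told apart. In cells 1 locus was called higher and 4 lower, beside 29% of all features, 11.9% higher and 17.2% lower (with DESeq2's size factors 3 and 4, with library totals 0 and 4, and with TMM factors from the low-numbered miRNAs 0 and 6). These other scalings called 1357, 1229 and 1311 of all 4408 features, beside 1279 before. The 4 loci called lower were the ones read one by one: Mir2137 (-2.05 ± 0.29), Mir6240 (-1.51 ± 0.24), Mir5121 (-1.34 ± 0.22) and Mir6236 (-1.12 ± 0.22). These 4 were chosen with earlier results of these data known, so their match with the calls is not a separate result. None of their DMSO cell libraries reached a stimulated one, and Rn18s-rs5 had -0.74. Over the 70 rRNA rows the median log2 fold was 0.63, with 5 called higher and 1 lower. Mir1306 was higher, from a mean of 32.0 to 51.4 CPM (0.69 ± 0.23), a call lost without each replicate in turn. In EVs none was called higher and 2 lower, beside 23.5% of all features (13.6% higher, 9.91% lower): Mir1983, from a mean of 159.1 to 80.3 CPM (-0.99 ± 0.19), and Mir3074-2 (-0.57 ± 0.21), the latter lost without each replicate in turn. With TMM factors from the low-numbered miRNAs 2 loci were called higher and 1 lower in EVs, beside 955 of all 4408 features (1038 before).

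GW4869 was compared with its vehicle DMSO. In cells 1 locus passed the test, beside 2.99% of all features (2.88% higher, 0.113% lower): Mir2137 rose from 31.3, 29.5 and 32.5 CPM with DMSO to 85.4, 80.1 and 76.0 with GW4869 (log2 fold 1.37 ± 0.28, edgeR adjusted p = 0.0107). All GW4869 cell libraries lay above all DMSO ones. The call was lost without each replicate in turn, at 1.33 to 1.40, and in a fit of the DMSO and GW4869 libraries alone, at 1.24. The host row Zfp185 rose too, from a mean of 215.5 to 461.4 CPM (1.10, adjusted p = 0.0149). Mir6236 and Mir6240 had 0.73 ± 0.22 (0.0699) and 0.69 ± 0.24 (0.141), and Mir5121 had 0.09 ± 0.22 (0.923). Rn18s-rs5 had 0.43, which did not pass the test, and the median over the 70 rRNA rows was -0.17.

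In EVs 3 loci were lower with GW4869 and none higher, beside 17.6% of all features (7.89% higher, 9.69% lower). Mir5121 fell from 53.2, 67.3 and 53.2 CPM in DMSO EVs to 27.7, 16.7 and 9.80 in GW4869 EVs, without overlap (-1.68 ± 0.25, edgeR adjusted p = 0.000156), and its snoRNA partner Snord33 fell by 1.58. Mir6240 fell from 977.1, 514.9 and 416.9 CPM to 249.3, 312.4 and 259.2 (-1.22 ± 0.23, 0.00145), and by 0.77 without the DMSO EV library at 977.1. Mir3535 fell from 42.8, 57.1 and 36.3 CPM to 25.0, 31.9 and 31.4 (-0.62 ± 0.21, 0.0432), a call lost without each replicate in turn and under other scalings. Mir6236 had -0.28 ± 0.21 and Mir2137 -0.17 ± 0.27, neither of which passed the test, and with library totals these stood at 0.05 and 0.20. The number of loci called in EVs was 7 without the DMSO EV library at 977.1 CPM for Mir6240, and 1 with TMM factors from the low-numbered miRNAs. Those factors called 553 of all 4408 features, beside 775 before.

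**Figure D4:**
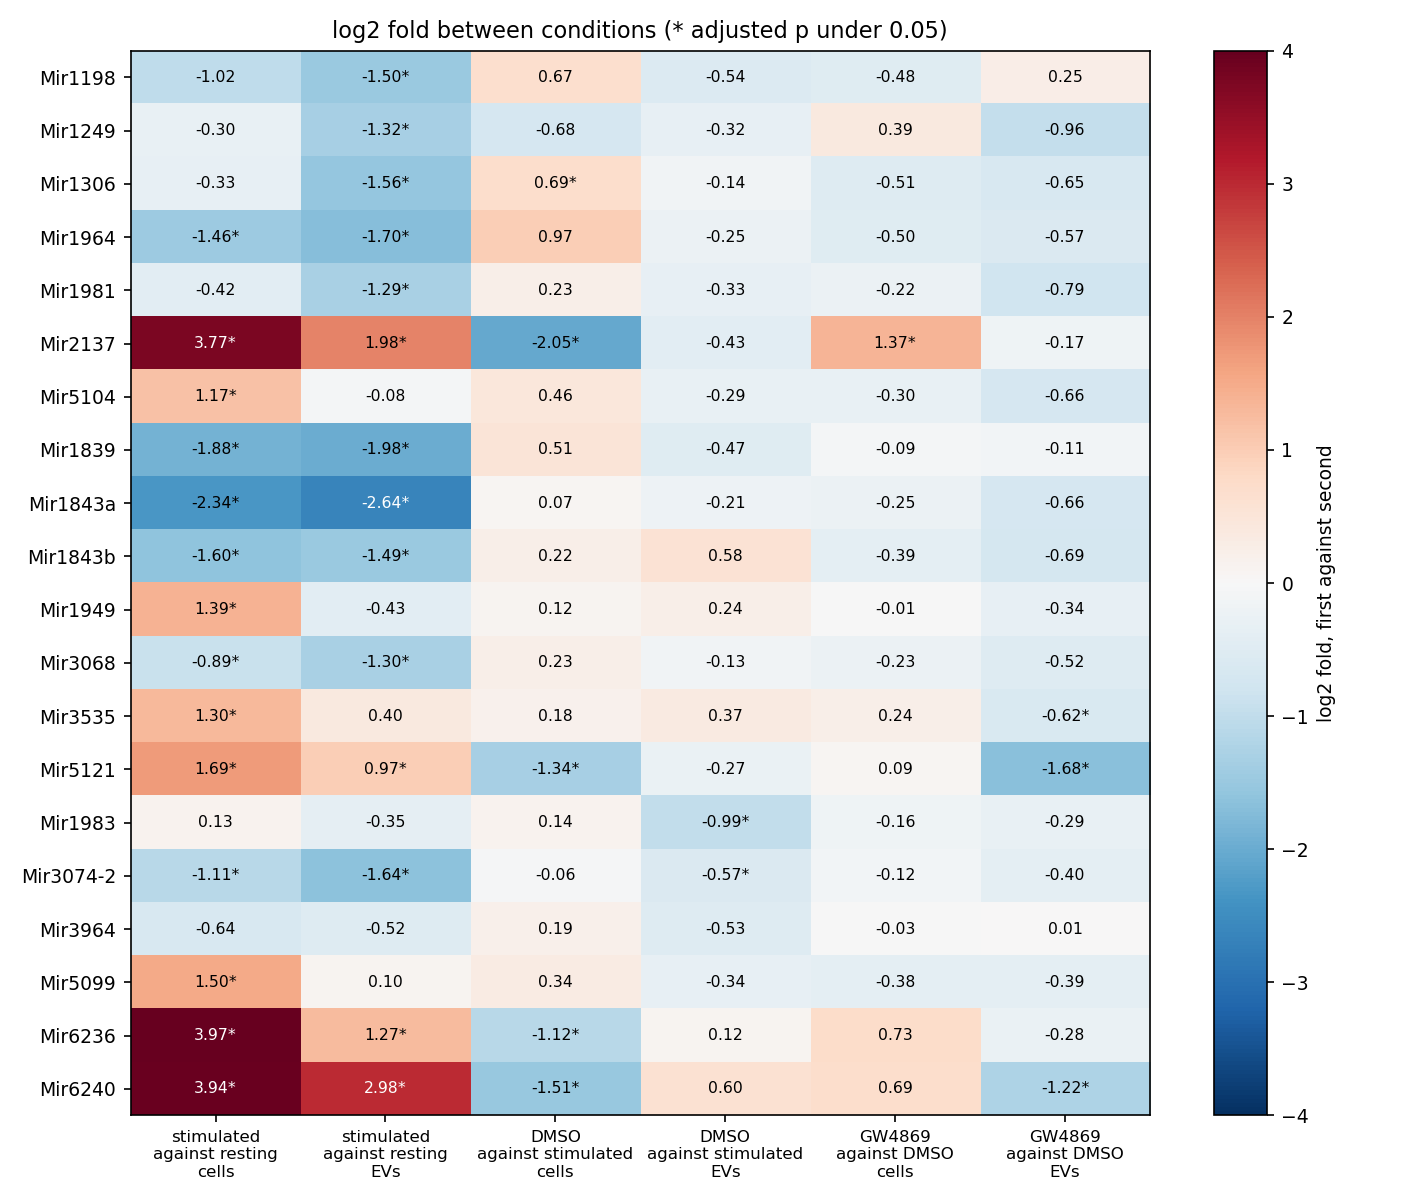
log2 fold of the 20 loci (rows) between conditions (columns: stimulated against resting, DMSO against stimulated and GW4869 against DMSO, each in cells and in EVs), with red above and blue below 0 and a star where the adjusted p was under 0.05. Mir6236, Mir6240 and Mir2137 have the darkest red in stimulated against resting cells, at 3.97, 3.94 and 3.77, and Mir1843a the darkest blue in EVs, at -2.64. With TMM factors from the low-numbered miRNAs Mir3068 in stimulated against resting cells stands at 0.12, Mir1249, Mir1843b, Mir1981 and Mir3068 in EVs at 0.16, 0.01, 0.17 and 0.19, and Mir6236 and Mir2137 in GW4869 against DMSO EVs at 0.17 and 0.36.

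The EV to cell ratio was lower with GW4869 than with DMSO for 4 loci and higher for none, beside 7.58% of all features called (1.75% higher, 5.83% lower). These were the loci read one by one: Mir6240 at -1.91 ± 0.33 (edgeR adjusted p = 0.00103), Mir5121 at -1.78 ± 0.33 (0.00169), Mir2137 at -1.54 ± 0.39 (0.0177) and Mir6236 at -1.0 ± 0.30 (0.0418). The comparison shares its DMSO libraries with the ones above, and the 4 loci were chosen with earlier results of these data known. Zfp185 had -2.24, Snord33 -1.46 and Rn18s-rs5 -0.91. Without the DMSO EV library that stood high for Mir6240, its difference was -1.46. Without replicate 2, and likewise without replicate 3, 1 locus was called, Mir6240. Mir2137 and Mir5121 lost the call without replicate 2 and without replicate 3. Mir6236 lost it without each replicate in turn, without that DMSO EV library (-0.89) and with other scalings.

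Ordered by mean CPM, Mir6236 ran from resting cells (27.7) over DMSO cells (200.9), resting EVs (280.1), GW4869 cells (332.5), stimulated cells (435.6), GW4869 EVs (607.4) and stimulated EVs (676.2) to DMSO EVs (736.2). Resting EVs overlapped both their neighbours in that order, and the GW4869, stimulated and DMSO EVs overlapped one another in turn. Mir6240 ran from resting cells (24.1) and resting EVs (53.5) over DMSO cells (130), GW4869 cells (209.7), GW4869 EVs (273.6), stimulated cells (371.1) and stimulated EVs (419.5) to DMSO EVs (636.3), with an overlap of neighbours at the last step alone. Mir5121 ran from GW4869 EVs (18.04), resting EVs (35.3), DMSO EVs (57.9) and stimulated EVs (69.6) to resting (151.2), DMSO (192.3), GW4869 (205.2) and stimulated cells (487.8), and of these neighbours DMSO and GW4869 cells overlapped. Mir2137 ran from resting cells (9.34) and resting EVs (23.3) over DMSO cells (31.1), GW4869 EVs (60.4), DMSO EVs (68.2), GW4869 cells (80.5) and stimulated EVs (91.2) to stimulated cells (128.5), with overlaps among the first 3 and among GW4869 EVs, DMSO EVs and GW4869 cells. Of the 20 loci, 15 had their lowest mean in GW4869 EVs and 7 their highest in resting EVs. For most of the 15, the GW4869 EV libraries overlapped those of the next group in the order. The same counts were not made over all features or under other scalings, so they are not read as a trait of these loci.

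The features whose log2 CPM followed these loci most closely over the 24 libraries were named as a description. All 24 libraries share the 8 groups, so a correlation mostly carries the group differences. For Mir6236 they were AY036118 (Pearson r = 0.991), Gm42418 (0.987) and Gm24245 (0.986), of which AY036118 and Gm42418 are lincRNA entries known to hold ribosomal RNA sequence. For Mir6240 they were rows of the protein-coding genes Tpst1 (0.975), Jarid2 (0.961) and Fgfr2 (0.956), whose counts are of small fragments and not of whole messages. For Mir5121 they were the box C/D snoRNAs Snord33 (0.989), Snord96a (0.949) and Snord14d (0.943). Snord33 shares bases with Mir5121, so the same reads can be counted for both, and its r is not that of a separate measurement. For Mir2137 they were Gm43809 (0.958), Inpp5f (0.957) and Xylb (0.956). Among the 4 loci themselves, r was 0.89 between Mir6236 and Mir6240, 0.88 between Mir6240 and Mir2137 and 0.82 between Mir6236 and Mir2137, and -0.31, -0.03 and 0.17 between Mir5121 and Mir6236, Mir6240 and Mir2137.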

How the data were processed

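The submitters' processing notes name Bowtie, GRCm38 and mm10, with no version. Trimming, treatment of reads with several alignments, and counting tool are not given in the sources used here. Each library's deposited file holds 1 read count per feature, per the file headers. Of 4441 lines, 33 repeated another line and were dropped. The smallest deposited count was 4, so no feature was at 0 in any library, and how features were chosen for the files is not given in the sources used here.

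From the deposited counts, 1 edgeR 4.0.16 quasi-likelihood model (R 4.3.3) was fitted over the 8 groups and 24 libraries and 4408 features, with TMM factors. filterByExpr (minimum count 10) removed 0 features. Benjamini-Hochberg adjusted p-values cover all 4408 features, with a threshold of 0.05. The script was tested on simulated data, where 200 of 4408 features were changed in the stimulated EVs. It recovered 46% of changes of log2 1 and 96% of those of log2 2. A difference that did not pass the test may thus be a missed one. More features were called in most comparisons here, so these rates need not hold for them. CPM levels are TMM-scaled, and log2 CPM used a prior count of 2. The alternatives were no filter, DESeq2's size factors in edgeR, library totals, TMM factors from the low-numbered miRNAs, DESeq2 1.42.0, a replicate block, each replicate left out, a separate fit of 12 libraries and, added after seeing the data, 1 DMSO EV library left out. Positions and overlaps come from GENCODE M21 (GRCm38) and RefSeq (GRCm38.p6), and sequences from RefSeq. The rule named, in each comparison, at most the 6 largest changes past the threshold in each direction, beside the 4 loci read one by one and the 3 features most alike to each. Loci past the 6th were named after their values were seen, and all named ones were recomputed under each alternative. The loci and lists were chosen with earlier results of these data known.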

Additional observations from a re-analysis of the deposited data

Results flagged for a closer look

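The EV to cell ratio differed between conditions, by a test of the difference itself, for 9 loci, 8 of them between stimulated and resting cultures (35.8% of all features called) and 4 between GW4869 and DMSO cultures (7.58%). Between stimulated and resting cultures the difference of the log2 ratios was -2.70 for Mir6236, -1.82 for Mir1949, -1.79 for Mir2137, -1.40 for Mir5099, -1.25 for Mir5104, -1.23 for Mir1306, -0.96 for Mir6240 and -0.90 for Mir3535. Leaving out 1 replicate number reduced these calls to between 2 and 6, and with library totals Mir3535 (-0.60) and Mir6240 (-0.67) were not called. Between GW4869 and DMSO cultures the difference was -1.91 for Mir6240, -1.78 for Mir5121, -1.54 for Mir2137 and -1.0 for Mir6236. Leaving out 1 replicate number reduced these to between 1 and 3. Mir6240 kept its call in each alternative run, while Mir6236 kept it with DESeq2 and with no filter, which removed 0 features, and lost it in the other alternatives.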

How the results depend on the processing

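Values are log2 folds unless called counts. The median fold over all features shifted by up to 1.12 with library totals and by up to 1.48 with TMM factors from the low-numbered miRNAs, so folds under these settings are read against those shifts. With these miRNA factors, directions turned for Mir2137 in EVs against cells (0.11 stimulated, 1.04 GW4869), for Mir1843a, Mir1964, Mir1981 and Mir1983 (0.13, 0.02, 0.08 and 0.22) in DMSO and Mir1839, Mir1964 and Mir1983 (0.16, 0.04 and 0.34) in GW4869 EVs against cells, for Mir3068 in stimulated against resting cells (0.12), for Mir1249, Mir1843b, Mir1981 and Mir3068 (0.16, 0.01, 0.17 and 0.19) in stimulated against resting EVs, and Mir2137 (0.36) and Mir6236 (0.17) in GW4869 against DMSO EVs. With library totals they turned for Mir2137 in EVs against cells with GW4869 (0.34) and in GW4869 against DMSO EVs (0.20), and for Mir6236 there (0.05). Of these, 1.04 passed the test. The turns listed are those of results called with TMM factors from all features and of the loci read one by one. Other results turned too, and some passed the test with the miRNA factors. Among them, Mir1843b and Mir3964 were called higher in EVs than in cells in DMSO and GW4869 cultures. With TMM factors from all features Mir1843b had -0.31 (DMSO) and -0.61 (GW4869), and Mir3964 -0.26 and -0.22. Mir5121 in GW4869 against DMSO cells stood at -0.04 in the separate fit. With each replicate left out it ran from -0.05 to 0.16, Mir2137 in GW4869 against DMSO EVs from -0.39 to 0.20, and Mir6236 in DMSO against stimulated EVs from -0.06 to 0.28. The cause was not tested.

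Loci called with the miRNA factors were 10 (17 before) in DMSO EVs against cells, 2 (1) in GW4869 against DMSO cells, 1 (3) in GW4869 against DMSO EVs, 3 (8) in the ratio difference of stimulated and resting and 2 (4) in that of GW4869 and DMSO. Of all 4408 features, these factors called 3426 (2884 before), 226 (132), 553 (775), 1444 (1580) and 55 (334) in the same order. In GW4869 against DMSO cells 2 loci were called with library totals (217 of all features) and 0 in the separate fit. The separate fit called 1 locus in the GW4869 and DMSO ratio difference. DESeq2's size factors gave 1 locus (2 before) in DMSO against stimulated EVs, beside 1033 (1038) of all features. Without the highest DMSO EV library 2, 7 and 1 loci were called in GW4869 against DMSO cells, GW4869 against DMSO EVs and DMSO against stimulated EVs. With each replicate left out in turn, 6 to 7 loci (10 before) were called in resting EVs against cells, 0 (1) in GW4869 against DMSO cells, 1 to 2 (2) in DMSO against stimulated EVs, 2 to 6 (8) in the ratio difference of stimulated and resting and 1 to 3 (4) in that of GW4869 and DMSO. These fits had fewer samples, and calls over all features were not counted for them. The filter removed 0 features, so the fit without it was the same fit.

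Same-numbered cell and EV libraries deviated from their group means with correlations from -0.1 to 0.15, over 0.1 in 2 of 12 pairs. They shared little deviation, which does not settle whether the numbers pair the samples. With the replicate block, 115 of 116 results kept their call and direction, and Mir6236 in the GW4869 and DMSO ratio difference had -0.99 and was not called. Counts as low as 4 limit Mir1249 and Mir1964. The lowest counts were 7 for Mir1198, 8 for Mir1843a, Mir1843b, Mir2137 and Mir3964, and 9 for Mir1949.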
